A study of Homo sapiens with 6 samples.

Results

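Mitochondrial ribosomal protein genes encode the proteins of the ribosome that works inside mitochondria. They were taken by name: an assembled-chromosome row of the deposited count table was kept where its name was MRPS or MRPL, a number and an optional letter from A to C. This gave 78 of 63299 genes, 29 named MRPS (small subunit) and 49 named MRPL (large subunit). The same names stood in 9 further rows on alternative scaffolds, which held 0 counts in every library and were left out. The study measured RNA by sequencing in LNCaP, an androgen-sensitive human prostate cancer cell line. The knockdown libraries (3) came from LNCaP cells with knockdown of MEP50 and with doxycycline (Dox+). The control libraries (3) came from LNCaP cells with no knockdown and no doxycycline (Dox-). Replicates are biological ones per the series' design text. The dose and duration of doxycycline, and whether control cells carry the inducible cassette, are not given in the sources used here.

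The mitochondrial ribosome is built from proteins made in the cytosol from nuclear genes and from ribosomal RNA transcribed from mitochondrial DNA. It translates the few mRNAs of mitochondrial DNA, which encode core subunits of the respiratory chain and of ATP synthase. The small subunit binds the mRNA and decodes it, and the large subunit forms the peptide bonds. Doxycycline is an antibiotic of the tetracycline class, which bind bacterial ribosomes and can also inhibit the mitochondrial ribosome. It was present only in knockdown libraries, so what follows from doxycycline and what follows from the loss of MEP50 cannot be told apart.

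The libraries held 18568002 to 36001219 counts in the knockdown group and 27509105 to 36234784 counts in the control group. WDR77, the gene of MEP50, had 15.05, 14.03 and 12.7 CPM (read counts scaled to the size of each library) in knockdown libraries 1 to 3, against 49.3, 47.2 and 36.7 CPM in control libraries 1 to 3. Its log2 fold change was -1.67 ± 0.163 (SE), with adjusted p = 0.00131 by edgeR's quasi-likelihood test. PRMT5, the methyltransferase that MEP50 binds, also fell, with a log2 fold change of -0.53 (adjusted p = 0.0268 by the same test). KLK3, which encodes prostate-specific antigen and marks these cells, was expressed in every library, at 803 to 1152 CPM in knockdown and 2457 to 3030.5 CPM in control libraries. KLK3, KRT18 and TMPRSS2 fell, with log2 fold changes of -1.48, -0.59 and -1.14. Their adjusted p was 0.00270, 0.0168 and 0.0437 by edgeR's quasi-likelihood test, and reached 0.0122, 0.0723 and 0.117 with 1 library left out. They belong to 9 LNCaP markers, of which 8 were below 0, against 49.8% of all tested genes, and 3 fell, against 4.88%. STEAP2 was above 0, at 0.24. Of 6 markers of other cell types, TP63, PTPRC, COL1A2, KRT5 and PECAM1 had 0 or 1 count in every library, and COL1A1 had 220 to 345 counts in knockdown and 137 to 429 in control libraries. A list of 10 proliferation genes summed to 1095, 763 and 450 CPM in knockdown libraries, against 2020, 1542 and 975 CPM in control libraries. All 10 of its log2 fold changes were below 0, and 2 passed the test, where 4.88% of all tested genes fell. With the replicate number as a block 10 passed, where 14.9% of all tested genes were called lower. With 1 library left out, 0 passed without knockdown 2, 1 without control 1, control 2 or knockdown 3, and 5 without knockdown 1. The part of proliferation in the values of the ribosomal protein genes was not tested. In bulk RNA, fewer cells that express a gene and less RNA per cell cannot be told apart.

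Promoter windows show the RefSeq start regions of the genes that the results turn on. RefSeq (GRCh38.p14) gave a window of 300 bases, 250 before and 50 after the start, for 69 of the 78 genes. No window was used for MRPS28, MRPS36, MRPL10, MRPL13, MRPL15, MRPL2, MRPL21, MRPL23 and MRPL35. The first 4 windows below belong to genes that fell in knockdown cells. The last 2 belong to the gene that was higher when replicates were compared in pairs, MRPL41, and to the gene whose knockdown values were all above the control values, MRPS30. Capitals mark exact matches, on either strand, to 6 short motifs: the ETS-family motif CCGGAAG, the NRF1 motif GCATGCGC, the YY1 motif AAGATGG, the E-box CACGTG, the CCAAT box, and the GC box GGGCGG. The windows lie at chr12:6493213-6493512 (minus strand) for MRPL51, chr11:65121933-65122232 (plus) for MRPL49, chr15:88467458-88467757 (plus) for MRPS11, chr7:55951627-55951926 (plus) for MRPS17, chr9:137551629-137551928 (plus) for MRPL41 and chr5:44808697-44808996 (plus) for MRPS30. RefSeq and the count table's annotation place some starts differently: the RefSeq start lies 680 bases downstream of the gene start in the table for MRPL41, 579 for MRPL51, 255 for MRPS11, 58 for MRPS17 and 22 for MRPS30, and at the same base for MRPL49. Each window is printed 5′ to 3′ in the direction of its gene.
MRPL51: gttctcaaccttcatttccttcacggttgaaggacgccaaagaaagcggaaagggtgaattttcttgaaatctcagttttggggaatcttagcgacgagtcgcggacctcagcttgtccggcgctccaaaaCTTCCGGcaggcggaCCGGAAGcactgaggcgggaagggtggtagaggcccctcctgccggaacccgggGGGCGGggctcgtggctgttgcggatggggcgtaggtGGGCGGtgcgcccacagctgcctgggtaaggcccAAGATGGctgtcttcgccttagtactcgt
MRPL49: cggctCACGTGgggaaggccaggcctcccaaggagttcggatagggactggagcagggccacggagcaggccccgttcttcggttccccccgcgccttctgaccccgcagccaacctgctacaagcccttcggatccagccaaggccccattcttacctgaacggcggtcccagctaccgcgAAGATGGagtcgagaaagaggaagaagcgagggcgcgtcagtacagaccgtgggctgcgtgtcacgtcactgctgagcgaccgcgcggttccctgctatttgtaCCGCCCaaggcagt
MRPS11: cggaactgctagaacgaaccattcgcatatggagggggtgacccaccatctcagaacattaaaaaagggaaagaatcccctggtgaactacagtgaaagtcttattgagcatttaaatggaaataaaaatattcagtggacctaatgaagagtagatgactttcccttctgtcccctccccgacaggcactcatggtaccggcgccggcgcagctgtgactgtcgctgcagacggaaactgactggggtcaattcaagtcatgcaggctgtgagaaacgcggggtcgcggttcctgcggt
MRPS17: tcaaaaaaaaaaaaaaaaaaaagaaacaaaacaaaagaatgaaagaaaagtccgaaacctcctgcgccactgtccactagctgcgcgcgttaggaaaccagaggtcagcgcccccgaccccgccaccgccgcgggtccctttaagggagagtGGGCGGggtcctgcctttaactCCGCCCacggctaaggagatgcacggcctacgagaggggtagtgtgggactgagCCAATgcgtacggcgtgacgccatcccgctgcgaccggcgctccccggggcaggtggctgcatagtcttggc
MRPL41: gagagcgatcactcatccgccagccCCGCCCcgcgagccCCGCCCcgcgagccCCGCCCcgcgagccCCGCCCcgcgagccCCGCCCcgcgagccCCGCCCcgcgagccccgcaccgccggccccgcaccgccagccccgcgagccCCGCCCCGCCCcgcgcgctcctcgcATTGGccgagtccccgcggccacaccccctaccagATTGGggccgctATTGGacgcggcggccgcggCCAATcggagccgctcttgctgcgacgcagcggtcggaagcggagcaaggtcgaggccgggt
MRPS30: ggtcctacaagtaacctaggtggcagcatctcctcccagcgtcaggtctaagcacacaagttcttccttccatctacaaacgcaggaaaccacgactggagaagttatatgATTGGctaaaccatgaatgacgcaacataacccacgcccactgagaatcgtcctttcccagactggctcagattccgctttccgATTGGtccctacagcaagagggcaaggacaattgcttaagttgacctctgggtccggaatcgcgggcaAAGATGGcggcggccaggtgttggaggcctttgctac

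The MRPL51 window held 2 ETS matches on opposite strands, 1 YY1 match just after the start and 2 GC boxes. The MRPL41 window, 80.7% G and C, held 8 GC boxes, most of them in a tandem repeat, and 4 CCAAT boxes. The MRPS11 window held none of the 6 motifs. Over all genes of the group, the ETS motif stood in 29 of 69 windows (42.0%), against 10.7% of 27305 RefSeq windows. The YY1 motif stood in 23 (33.3%), against 6.06%, and the NRF1 motif in 6 (8.70%), against 3.27%. The E-box was found in 8.70% of the windows against 7.43%, the CCAAT box in 28.99% against 35.7%, and the GC box in 60.9% against 44.6%. ETS matches were found in 12 of 27 small-subunit and 17 of 42 large-subunit windows. The median log2 fold change was -0.15 for the genes with an ETS match and -0.21 for those without. The 27305 windows were not limited to genes tested here, and a comparison with the windows of tested genes alone was not made. A match is a run of letters, not a bound site.

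The main comparison asked how the 78 genes differed between knockdown and control cells. All 78 passed the filter on low counts, among 21101 genes tested. With adjusted p under 0.05, 5 genes fell in knockdown cells: MRPL51, MRPL15, MRPL49, MRPS11 and MRPS17. That is 5 of 78, where 4.88% of all tested genes fell, so the share is close to the background. None rose, where 2.72% of all tested genes rose. Among the 10513 tested genes with a mean of at least 10 CPM, 844 fell and 267 rose. At an unadjusted p under 0.05, 14 genes were lower and 0 higher, where 14.3% of all tested genes were lower and 10.4% higher. DESeq2 called 6 lower and 0 higher, where it called 7.25% of all genes with an adjusted p lower and 4.52% higher. Limma-voom called 5 lower and 0 higher, against 4.98% and 2.81% of all tested genes. The differences were small and mostly of the same sign: 66 of 78 log2 fold changes (84.6%) were below 0, against 49.8% of all tested genes and 59.3% of the 10513 tested genes with a mean of at least 10 CPM. The median log2 fold change was -0.20 (quartiles -0.30 and -0.10), against 0.00 over all tested genes and -0.08 over those with at least 10 CPM. Under 16 other settings of scaling, filter, test and libraries, the median of the 78 genes stayed below that of all tested genes, with differences of -0.31 to -0.11 on the log2 scale. The 78 values ran from -1.04 in MRPL51 to 0.66 in MRPL41.

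**Figure D1:**
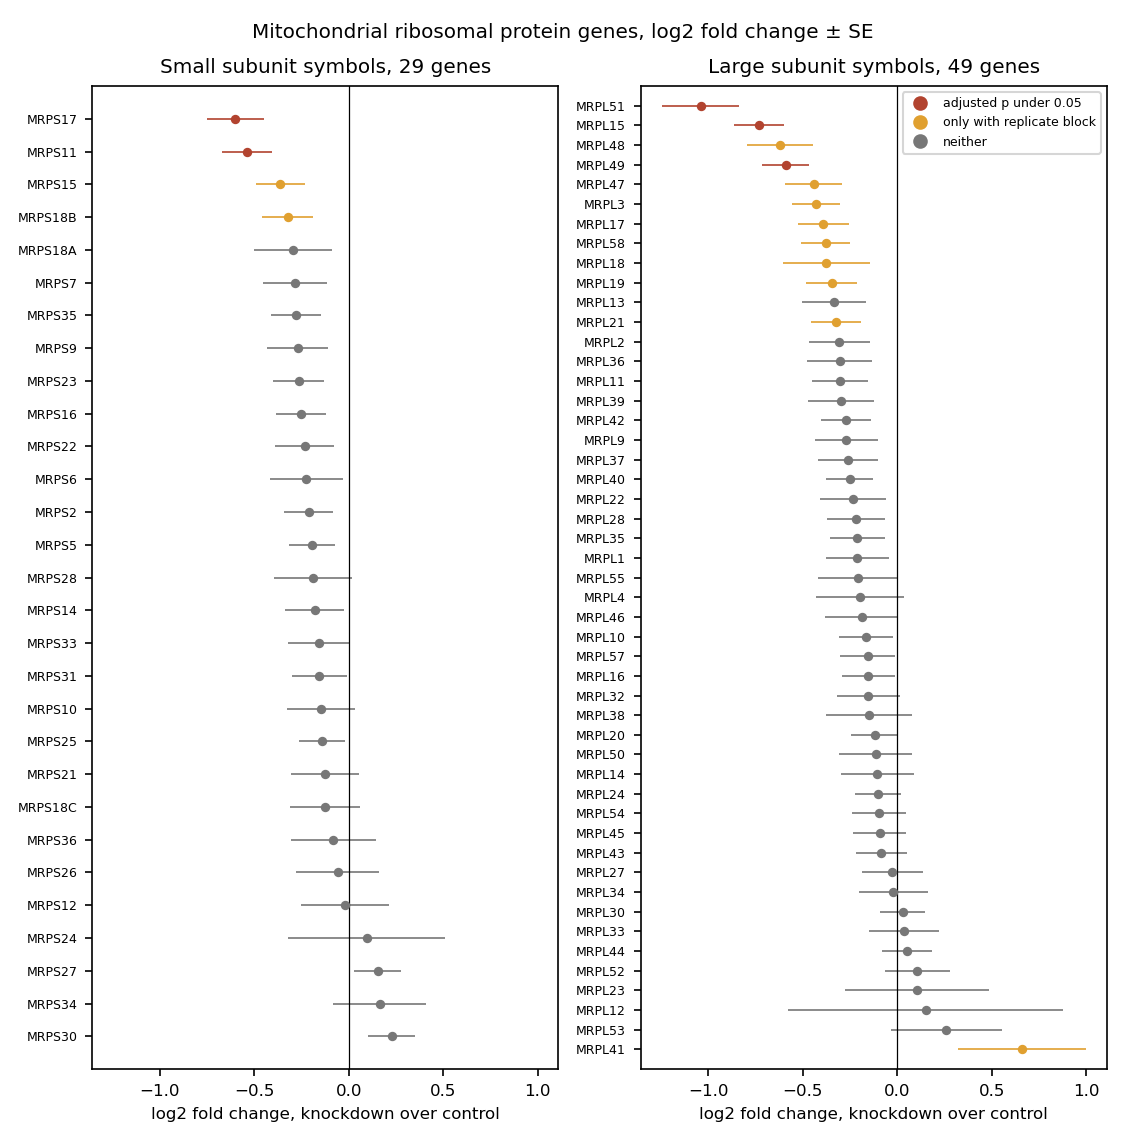
Log2 fold change, knockdown over control, of every mitochondrial ribosomal protein gene, with its standard error; the left panel holds the 29 MRPS genes and the right panel the 49 MRPL genes, each ordered by value. Most points lie a little left of 0; 5 genes pass the test (red), and 11 more pass with the replicate block (yellow), of which MRPL41 is the only one to the right of 0.

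Replicate numbers were taken as pairs because same-numbered libraries deviated together in these counts, and no label states a pairing. The paired fit (replicate number as a block), which leaves 2 residual degrees of freedom, called more genes throughout the transcriptome. It called 15 of the 78 lower, where 14.9% of all tested genes were called lower, and 1 higher, where 11.2% were called higher. Among the 10513 tested genes with a mean of at least 10 CPM, it called 2484 lower and 1185 higher. The 15 were the 5 genes above, MRPL48, MRPL3, MRPL47, MRPL17, MRPL58, MRPL18, MRPL19, MRPL21, MRPS15 and MRPS18B, named here because the paired fit called them. Without any model, the ranges of the 2 groups did not overlap for 20 genes lower in knockdown. This held for 17.0% of all tested genes and for 2543 of the 10513 with at least 10 CPM. The ranges did not overlap for 1 gene higher in knockdown, MRPS30. Higher in knockdown without overlap were 13.4% of all tested genes and 1213 of the 10513. By pair, the median difference over the 78 genes was -0.30 between the libraries numbered 1, -0.06 between those numbered 2 and -0.26 between those numbered 3. The group's lower level therefore stood mainly in pairs 1 and 3. Control library 1 stood apart: the median gene lay 0.30 above its mean over the 6 libraries there, against -0.01 and 0.04 in control libraries 2 and 3, and -0.05, -0.05 and -0.22 in knockdown libraries 1 to 3. Without control library 1, the median log2 fold change was -0.08 and 56 of 78 values lay below the median of all tested genes.

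MRPL51, a large-subunit protein with no bacterial counterpart, had the lowest log2 fold change. The gene (ENSG00000111639.7, hg38, chr12:6491886-6493841, minus strand) had 90.4, 80.0 and 57.7 CPM in knockdown libraries, against 193, 125 and 151 CPM in control libraries. Every knockdown value lay below every control value. The level fell by 51.4%, a log2 fold change of -1.04 ± 0.205 (SE, n = 3 each), with adjusted p = 0.0193 by edgeR's quasi-likelihood test. Of its annotated exon length, 31.3% is also covered by exons of NCAPD2 on the opposite strand, a condensin subunit gene that works in chromosome condensation. NCAPD2 averaged 131 CPM in knockdown and 250.04 CPM in control libraries, and fell as well (log2 fold change -0.93 ± 0.209, adjusted p = 0.0307 by the same test). The strand setting of the counting is not given in the sources used here, so reads of the shared stretch cannot be assigned to either gene.

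MRPL15, a large-subunit protein with a bacterial counterpart, had 43.3, 43.0 and 38.7 CPM in knockdown libraries, against 78.3, 65.3 and 64.0 CPM in control libraries. The 2 groups lay well apart, and the 3 knockdown values lay within a few CPM of each other. The gene (ENSG00000137547.8, chr8:54135210-54147901, plus strand) shares no exon with another gene in the files' coordinates. Its log2 fold change was -0.73 ± 0.133 (SE), with adjusted p = 0.0138 by edgeR's quasi-likelihood test, the smallest of the group.

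MRPL49, a protein of the large subunit found in mitochondria and not in bacteria, had 131, 123 and 118 CPM in knockdown libraries, against 210.1, 174 and 175 CPM in control libraries. Again no values of the groups overlapped. The gene (ENSG00000149792.8, chr11:65122183-65127371, plus strand) starts 49 bases from FAU, which is transcribed the other way and encodes a ubiquitin-like protein fused to a cytosolic ribosomal protein. MRPL49 had a log2 fold change of -0.59 ± 0.125 (adjusted p = 0.0249 by edgeR's quasi-likelihood test), and FAU one of -0.08 (adjusted p = 0.724 by the same test). Exons of SYVN1 and FAU, both on the opposite strand, together cover 12.2% of its exon length. SYVN1, a ubiquitin ligase gene, had -0.41 (adjusted p = 0.215; 0.0728 with the replicate number as a block, edgeR).

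Both small-subunit genes that fell encode conserved proteins with bacterial counterparts. MRPS11, a protein of the platform of the small subunit, had 46.6, 40.8 and 44.0 CPM in knockdown libraries, against 70.2, 63.2 and 57.2 CPM in control libraries. Its log2 fold change was -0.54 ± 0.131 (adjusted p = 0.0413 by edgeR's quasi-likelihood test; ENSG00000181991.15, chr15:88467453-88480773, plus strand). MRPS17, which binds ribosomal RNA, had 18.3, 19.7 and 17.6 CPM in knockdown libraries, against 32.01, 26.8 and 25.6 CPM in control libraries. Its log2 fold change was -0.60 ± 0.1495 (adjusted p = 0.0444 by the same test; ENSG00000239789.5, chr7:55951819-55956501, plus strand). In both genes the highest knockdown value lay below the lowest control value. RP11-97O12.5, on the opposite strand, covers 9.17% of the exon length of MRPS11 and had a log2 fold change of -0.65 (adjusted p = 0.0614; 0.00219 with the block, edgeR). RP11-15K19.2 and GBAS, on the same strand, together cover 27.0% of the exon length of MRPS17, and GBAS had -0.23 (adjusted p = 0.273).

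These 5 calls depended on having all 6 libraries: with 1 left out, 0 genes passed without control 1, knockdown 2 or knockdown 3, 1 without control 3, 3 without knockdown 1 and 4 without control 2. MRPL15 passed in 3 of the 6 fits that leave out 1 library, and its adjusted p rose to 0.0526 without control 1, 0.0618 without knockdown 2 and 0.0620 without knockdown 3. MRPL51 and MRPL49 passed in 2 of the 6, without control 2 and without knockdown 1. For MRPL51 the adjusted p was 0.0547 without control 1, 0.0511 without control 3, 0.0756 without knockdown 2 and 0.0560 without knockdown 3. For MRPL49 it was 0.1001, 0.0530, 0.106 and 0.0950 in the same order. MRPS11 passed in 0 of the 6, with adjusted p of 0.0588 (without control 2) to 0.159 (without knockdown 2). MRPS17 also passed in 0 of the 6, with adjusted p of 0.0542 (without control 2) to 0.169 (without control 1). With other library scalings (RLE, upper quartile or totals), the adjusted p of MRPS11 was 0.0511 to 0.0736 and that of MRPS17 0.0520 to 0.0764. In every one of these fits the 5 log2 fold changes were below 0.

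**Figure D2:**
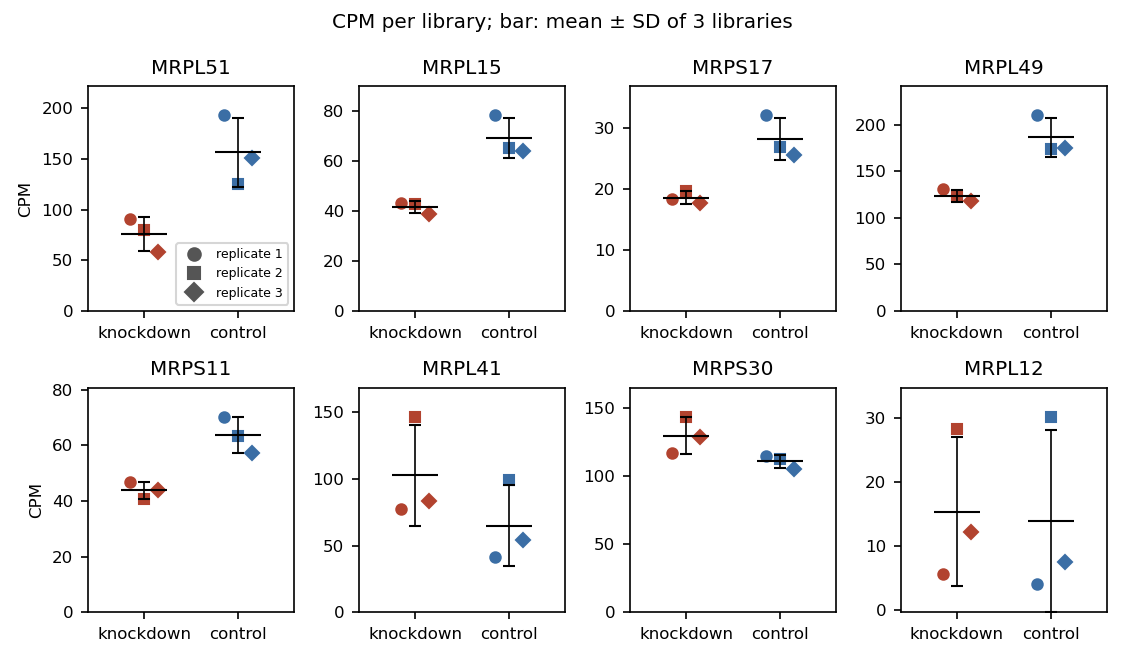
CPM in each library for 8 mitochondrial ribosomal protein genes, knockdown left and control right; symbols give the replicate number, and the bar is the mean ± SD of 3 libraries. MRPL51, MRPL15, MRPS17, MRPL49 and MRPS11 have no overlap between groups; MRPL41 is higher in knockdown within each replicate number, MRPS30 is higher in knockdown in every library, and MRPL12 varies with the replicate number in both groups.

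MRPL48, another large-subunit protein specific to mitochondria, had 19.8, 17.6 and 21.4 CPM in knockdown libraries, against 35.9, 24.8 and 29.6 CPM in control libraries. The groups did not overlap, but the test did not pass (log2 fold change -0.62 ± 0.173, adjusted p = 0.0622; 0.00346 with the replicate block, edgeR). Without control 2 it passed, with adjusted p = 0.0392. MRPS18B, a small-subunit protein, had log2 fold change -0.32 (adjusted p = 0.175; 0.0270 with the block).

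MRPL41 was the gene called higher with the replicate block. This large-subunit protein, specific to mitochondria, had 77.6, 146 and 83.6 CPM in knockdown libraries, against 41.3, 99.2 and 54.4 CPM in control libraries. The groups overlapped, since control library 2 was above knockdown libraries 1 and 3, but within each replicate number knockdown was the higher. The log2 fold change was 0.66 ± 0.337 with adjusted p = 0.264 without the block, and 0.69 ± 0.105 with adjusted p = 0.000417 with it (edgeR). MRPL41 also had the highest GC content of the 78 transcripts, 71.9%, and libraries differed in their trend with GC. With that trend removed and the block kept, its log2 fold change was 0.27 (adjusted p = 0.0440). MRPS30, whose product sits in the large subunit despite its name, had 117, 144 and 129 CPM in knockdown libraries, against 115, 113 and 105 CPM in control libraries. Its log2 fold change was 0.23 ± 0.122 and did not pass (adjusted p = 0.290; 0.130 with the block, edgeR).

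MRPL12, a stalk protein of the large subunit, varied more between replicate numbers than between groups. It had 104, 1045 and 266 counts in knockdown libraries 1 to 3, and 105, 909 and 262 counts in control libraries 1 to 3. On the CPM scale these were 5.57, 28.3 and 12.2 CPM in knockdown, against 4.07, 30.3 and 7.48 CPM in control libraries. Libraries numbered 2 were thus the highest in both groups. Without the block its log2 fold change was 0.15 ± 0.728 (adjusted p = 0.927, edgeR), and this standard error leaves a difference in either direction within reach. With the replicate block the log2 fold change was 0.32 ± 0.166 and did not pass either (adjusted p = 0.179, edgeR). Knockdown was the higher in the libraries numbered 1 and 3, and the lower in those numbered 2. Exons of other genes cover 68.2% of its exon length.

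MRPL12 had the largest shift of the libraries numbered 2 among the 78 genes, 1.71 in knockdown and 2.35 in control libraries on the log2 scale. For each gene, the log2 CPM of library 2 was set against the mean of libraries 1 and 3 of its group. In the 11 genes above 60% GC the median shift was 0.26 in knockdown and 0.38 in control libraries. In the 67 genes at or below 60% it was 0.05 in knockdown and -0.18 in control libraries. Not every GC-rich gene had a positive shift: MRPL36, at 65.2% GC, had 0.04 in knockdown and -0.27 in control libraries. Over the 78 genes, Spearman's rho between GC content and the shift was 0.256 in knockdown and 0.590 in control libraries. These describe genes that share the same libraries and are not independent replicates. The median log2 fold change was -0.10 in the GC-rich genes and -0.21 in the others, and -0.20 in both with each library's GC trend removed. That correction called 8 genes lower and 0 higher without the block, where 5.98% of all tested genes were lower and 3.60% higher. With the block it called 19 lower and 1 higher, against 16.4% and 12.6% of all tested genes.

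**Figure D3:**
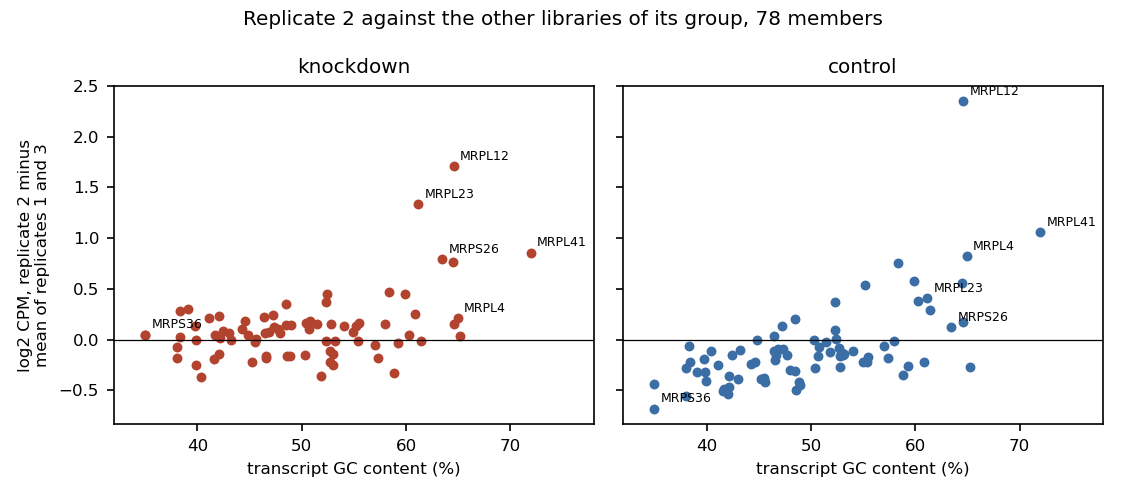
Shift of replicate 2 (log2 CPM minus the mean of replicates 1 and 3 of its group) against transcript GC content in percent, for 78 genes, knockdown left and control right; each point is a gene. The 11 genes above 60% GC have a median shift of 0.26 in knockdown and 0.38 in control libraries, with MRPL12 and MRPL41 among the highest.

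The medians of the small and the large subunit lay close together. The median log2 fold change was -0.19 over 29 small-subunit and -0.21 over 49 large-subunit genes, a difference of 0.02. In the small subunit 25 of 29 values were below 0, 2 genes fell and 0 rose. In the large subunit 41 of 49 values were below 0, 3 fell and 0 rose. With the replicate block, 4 small-subunit genes were lower and 0 higher, and 11 large-subunit genes were lower and 1 higher. The block called 14.9% of all tested genes lower and 11.2% higher, and the fit without it 4.88% and 2.72%. Leaving out 1 library at a time moved the difference of medians between -0.05 (without control 2) and 0.05 (without control 3), so its sign was not stable. Of the proteins with bacterial counterparts, 15 of 16 in the small subunit and 26 of 30 in the large subunit had values below 0 (medians -0.20 and -0.21). Of those specific to mitochondria, 8 of 10 in the small subunit and 16 of 21 in the large subunit did (medians -0.16 in both).

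Summed over all 78 genes, the ribosomal protein mRNAs came to 4922, 4981 and 4416 CPM in knockdown libraries, against 6114, 5201 and 5245 CPM in control libraries. With this TMM scaling, all 3 knockdown sums were below all 3 control sums, and the ratio of means was 0.865. As a percentage of each library's total counts, the genes made up 0.495, 0.512 and 0.466 in knockdown, against 0.573, 0.522 and 0.507 in control libraries. These shares overlapped, since knockdown 2 lay above control 3, and their ratio of means was 0.920. The small subunit summed to 2039 ± 104 CPM in knockdown and 2262 ± 198 CPM in control libraries (SD, n = 3 each). The large subunit summed to 2733 ± 208 CPM in knockdown and 3258 ± 319 CPM in control libraries. The small-to-large ratio, which does not depend on library scaling, was 0.727, 0.743 and 0.771 in knockdown libraries, against 0.686, 0.688 and 0.711 in control libraries. It was higher in every knockdown library than in any control library, by 1.06, 1.08 and 1.08 times within the replicate numbers. An exact permutation test with 3 libraries against 3 cannot give a two-sided p below 0.10, and none was used.

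The separation of this ratio was lost when 3 names were placed differently. Whether leaving out or placing other genes differently would do the same was not tested. MRPS30 and MRPS18A encode proteins that sit in the large subunit of the mammalian ribosome, and the MRPS36 protein is now counted as part of a mitochondrial dehydrogenase complex rather than of the ribosome. With these placed accordingly (26 small-subunit and 51 large-subunit genes), the ratio was 0.630, 0.637 and 0.661 in knockdown libraries, against 0.607, 0.606 and 0.631 in control libraries. The ranges then overlapped narrowly, at 0.630 in knockdown 1 against 0.631 in control 3. Knockdown was still the higher within each replicate number.

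**Figure D4:**
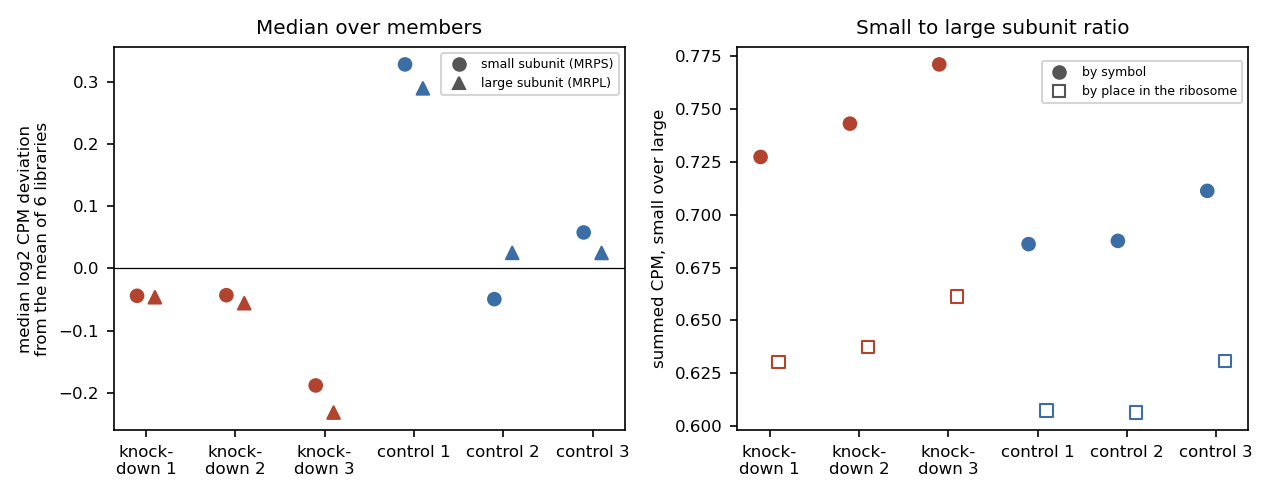
Left, median deviation of log2 CPM from each gene's mean over 6 libraries, for the small (circles) and large (triangles) subunit; right, summed CPM of small over large subunit genes, by symbol (filled) and by place in the ribosome (open); knockdown libraries are red, control libraries blue. Control 1 stands highest in the left panel, and the ratio by symbol is 0.727 to 0.771 in knockdown against 0.686 to 0.711 in control libraries.

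Levels between genes were compared as RPKM (counts scaled to library size and to exon length), averaged over the 6 libraries. The highest small-subunit genes were MRPS35 at 89.9 and MRPS34 at 70.3 RPKM, and the highest large-subunit genes were MRPL24 at 83.9 and MRPL51 at 75.0 RPKM. None of MRPS35, MRPS34 and MRPL24 passed the test, with log2 fold changes of -0.28, 0.16 and -0.10 (adjusted p = 0.225, 0.724 and 0.637, edgeR). The lowest were MRPS24 at 0.288 and MRPS6 at 3.45 RPKM in the small subunit, and MRPL38 at 0.974 and MRPL53 at 1.46 RPKM in the large subunit. Exons of other genes cover 23.2% of the exon length of MRPS24, 41.1% of MRPL38 and 45.2% of MRPL53. How reads shared by overlapping genes were counted is not given in the sources used here. MRPS24, MRPS6, MRPL38 and MRPL53 had log2 fold changes of 0.09, -0.22, -0.15 and 0.26, and none passed.

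The 3 MRPS18 genes are paralogs whose products take different places in the ribosome. In the class counts above, MRPS18C stood with the proteins that have bacterial counterparts, and MRPS18A and MRPS18B with those specific to mitochondria. MRPS18A had 36.7, 26.1 and 23.9 CPM in knockdown libraries, against 43.4, 32.1 and 30.8 CPM in control libraries. MRPS18B had 105, 88.8 and 102 CPM in knockdown libraries, against 138, 108 and 124 CPM in control libraries. MRPS18C had 42.2, 34.4 and 35.9 CPM in knockdown libraries, against 49.6, 30.9 and 42.2 CPM in control libraries. Only for MRPS18B did the groups not overlap, and its adjusted p was 0.175. The log2 fold changes of MRPS18A and MRPS18C were -0.30 ± 0.205 and -0.13 ± 0.186 (adjusted p = 0.412 and 0.720, edgeR). MRPS12, a protein of the decoding centre that is related to the bacterial streptomycin target, had a log2 fold change of -0.02 ± 0.231, and MRPS36 one of -0.08 ± 0.223. MRPS27, MRPS34, MRPL52, MRPL53 and MRPL12 were above 0 with values of 0.15, 0.16, 0.11, 0.26 and 0.15, and none passed.

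Overlaps and pseudogenes were counted because reads could be shared. Exons of another gene touch 40 of the 78 genes, with a median log2 fold change of -0.20 and 4 that fell. The other 38 share none, with a median of -0.19 and 1 that fell (MRPL15). With the replicate block, 9 of the 38 were lower and 1 higher. The block called 14.9% of all tested genes lower, and 2484 of the 10513 with at least 10 CPM. Without the block, 4.88% of all tested genes fell. Processed pseudogenes of these genes are many, but 75 such rows held only 1331 counts, 0.153% of the 870057 counts of the 78 genes. Their share of the parent gene's counts was highest for MRPL53 at 25.5%, and was 3.95% for MRPS17.

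Many of these genes start next to another gene. A start on the opposite strand within 1000 bases upstream was found for 22 of 69 genes (31.9%), against 16.6% of all RefSeq windows. Those windows were again not limited to tested genes. Of these neighbours, 17 were tested in the table, 14 had log2 fold changes below 0, and 2 fell. For comparison, 49.8% of all tested genes were below 0 and 4.88% fell. Among the 10513 with a mean of at least 10 CPM, 59.3% were below 0 and 844 fell. The 2 neighbours that fell were NCAPD2, 840 bases from MRPL51, and MRPS11 itself, which starts 320 bases from MRPL46. MRPS11 and MRPL46 are each other's neighbours, so the neighbour counts partly recount the ribosomal protein genes. MRPL46, a large-subunit protein, had a log2 fold change of -0.19 (adjusted p = 0.582), against -0.54 for MRPS11. SKA3, a kinetochore gene 106 bases from MRPL57, had -1.31 against -0.16 for MRPL57, and EME1, a DNA repair endonuclease subunit gene 45 bases from MRPL27, had -0.72 against -0.03 for MRPL27. SKA3 and EME1 did not pass without the block (adjusted p = 0.0548 and 0.0901) and passed with it (3.84e-05 and 0.000488, edgeR). These 4 pairs were chosen after their values were seen.

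**Figure D5:**
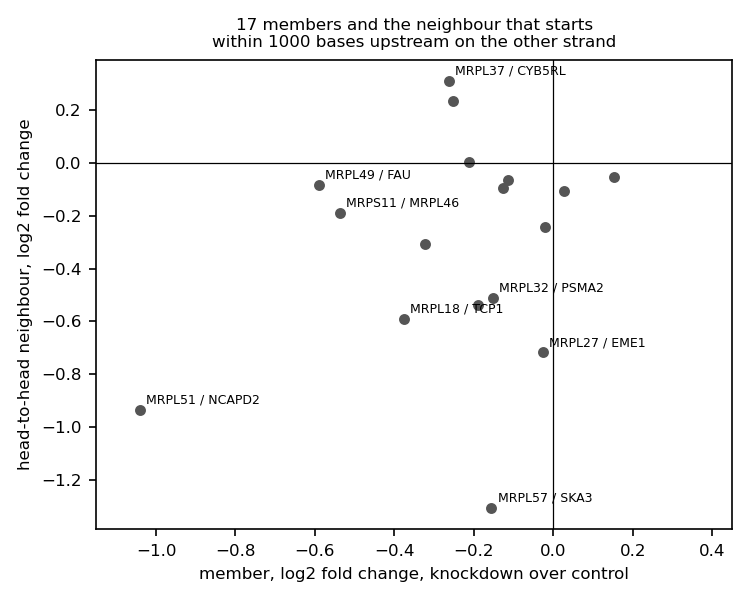
Log2 fold change, knockdown over control, of 17 mitochondrial ribosomal protein genes (horizontal axis) and of the gene that starts within 1000 bases on the opposite strand (vertical axis); each point is a pair. MRPL51 and NCAPD2, whose exons overlap, lie together at -1.04 and -0.93. SKA3 and EME1 are low beside ribosomal protein genes near 0. The pair of MRPS11 and MRPL46 appears in both directions.

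Other genes of mitochondrial translation were read from the same fit, in which 4.88% of all tested genes fell and 2.72% rose. With the block, 14.9% were lower and 11.2% higher. Among the 10513 tested genes with at least 10 CPM, 844 fell, and 2484 were lower with the block. Of 5 subunit proteins with other symbols, 0 passed (0 at an unadjusted p under 0.05, and 0 by DESeq2 and limma-voom), with a median log2 fold change of -0.13. GADD45GIP1, AURKAIP1 and CHCHD1 had -0.26, -0.27 and -0.13. Of 15 translation factors, 2 fell and 0 rose (6 lower with the block), with a median of -0.13. TACO1, an activator of COX1 translation, had 23.8, 21.98 and 20.7 CPM in knockdown libraries, against 37.1, 36.7 and 35.2 CPM in control libraries (log2 fold change -0.71 ± 0.132, adjusted p = 0.0149, edgeR). TSFM, the mitochondrial elongation factor that recharges EF-Tu, had 41.2, 39.96 and 36.8 CPM in knockdown libraries, against 64.7, 52.8 and 55.5 CPM in control libraries (-0.55 ± 0.132, adjusted p = 0.0387). LRPPRC, which stabilises mitochondrial mRNAs, had -0.50 (adjusted p = 0.0525; 0.00394 with the block). In both genes that fell, the groups were well apart.

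Of 25 genes for assembly of the ribosome and modification of its RNA, 2 fell and 0 rose (7 lower and 2 higher with the block), with a median of -0.15. Across all tested genes, 4.88% fell, and 14.9% were lower and 11.2% higher with the block. NGRN had 20.7, 24.0 and 19.2 CPM in knockdown libraries, against 34.7, 32.3 and 32.2 CPM in control libraries (log2 fold change -0.63 ± 0.143, adjusted p = 0.0314, edgeR). NGRN binds the mitochondrial large-subunit ribosomal RNA. MPV17L2, a membrane protein linked to ribosome assembly, had -0.80 ± 0.205 (adjusted p = 0.0483). NSUN4, an RNA methyltransferase that acts on the small-subunit ribosomal RNA, had -0.36 (adjusted p = 0.112; 0.0198 with the block). Fits that leave out 1 library called 0 to 2 translation factors and 0 or 1 assembly genes. For translation factors the count was 0 without control 1, knockdown 2 or knockdown 3, and 1 without control 3 or knockdown 1. For assembly genes it was 0 without control 1, control 3, knockdown 2 or knockdown 3, and 1 without the others.

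The transcripts of mitochondrial DNA, whose mRNAs this ribosome translates, were not lower as a list. Of 15 transcripts, 12 had log2 fold changes above 0, where 10602 of 21101 tested genes did. The median of the 15 was 0.33, and 0 passed (0 at an unadjusted p under 0.05, and 0 by DESeq2 and limma-voom). The transcripts share the same 6 libraries and are not independent replicates. MT-RNR1, the RNA of the small subunit, had 252, 121 and 87.9 CPM in knockdown libraries, against 74.3, 76.9 and 118 CPM in control libraries (0.77 ± 0.355, adjusted p = 0.218, edgeR). Knockdown library 1 was far above the rest. MT-CYB, a subunit of complex III, had 0.41 (adjusted p = 0.303; 0.00959 with the block). MT-CO3, a subunit of cytochrome c oxidase, had -0.33 (adjusted p = 0.316). By pair, the median of the 15 transcripts was 0.43, 0.18 and -0.09. Summed CPM were 5765, 4019 and 5151 in knockdown libraries, against 4197, 4761 and 5295 in control libraries, and overlapped.

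Nuclear genes of the respiratory chain and ATP synthase, the complexes that the mitochondrial products join, were taken by symbol pattern. The pattern also took in 3 pseudogene rows, none of which passed; without them 74 rows remain, with a median log2 fold change of -0.18. Of all 77, 7 fell and 0 rose (22 lower and 1 higher with the block), with a median log2 fold change of -0.17. For comparison, 4.88% of all tested genes fell, and 14.9% were lower with the block. Among the 10513 with at least 10 CPM, these counts were 844 and 2484. ATP5B, the catalytic subunit of ATP synthase, had 737, 741 and 686 CPM in knockdown libraries, against 1625, 1412 and 1479 CPM in control libraries (-1.06 ± 0.128, adjusted p = 0.00291, edgeR). UQCRFS1, the Rieske protein of complex III, and NDUFB10, a subunit of complex I, had -0.98 and -0.89 (adjusted p = 0.00437 and 0.00578). Leaving out 1 library gave 3 calls in this list without knockdown 2 or knockdown 3, 4 without control 1 or control 3, and 12 without control 2. Of 81 cytosolic ribosomal protein genes, 0 passed (4 higher and 2 lower at an unadjusted p under 0.05; 2 by DESeq2 and 0 by limma-voom), with a median of 0.04. With the block 3 were higher and 2 lower, and 1 passed without control 1 or control 2. RPS25, RPS27L and RPL8 had -0.69, 0.64 and -0.32 (adjusted p = 0.0590, 0.0608 and 0.148).

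Of 12 regulators of mitochondrial biogenesis, 0 passed (2 lower at an unadjusted p under 0.05; 1 by DESeq2, 0 by limma-voom; 2 lower with the block), with a median of -0.18. PPARGC1A, a coactivator of mitochondrial gene programs, was low throughout, at 0.589, 0.622 and 0.229 CPM in knockdown libraries, against 1.40, 1.90 and 0.999 CPM in control libraries (-1.54 ± 0.414, adjusted p = 0.0565; 0.00290 with the block, edgeR). MYC and TFAM had -0.53 and -0.26 (adjusted p = 0.0751 and 0.344). Inhibition of mitochondrial translation is known to induce an amino acid and chaperone response in other cells. Of 19 genes of that response, 1 fell and 0 rose (7 lower and 2 higher with the block), with a median of -0.27. The shares of all tested genes were 4.88% lower without the block, and 14.9% lower and 11.2% higher with it. PSAT1, an enzyme of serine synthesis, had 57.7, 101 and 142 CPM in knockdown libraries, against 252, 354 and 487 CPM in control libraries (-1.86 ± 0.331, adjusted p = 0.0129, edgeR; 0.0649 without knockdown 2). PHGDH, the first enzyme of serine synthesis, had -0.86 and SESN2, a stress-induced inhibitor of mTORC1, had 0.77 (adjusted p = 0.137 and 0.143; 6.65e-05 and 0.000120 with the block). The gene of the transcription factor ATF4, named outside the rule after its value was seen, had -0.15 ± 0.281 (adjusted p = 0.779). GDF15, also named outside the rule, was higher with the block, as SESN2 was (0.48, adjusted p = 0.713, and 0.00494 with the block, edgeR). Whether the response was induced was not tested.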

How the data were processed

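RNA was measured by sequencing in 6 LNCaP libraries. The labels' protocols name Trizol for extraction and an Illumina TruSeq RNA kit for the libraries. The deposited values are whole-number read counts per gene. Per the submitters' processing notes the authors used bcl2fastq, STAR 2.5, featureCounts, Subread 1.6.5, edgeR 3.20.8 and hg38. The strand setting and the annotation release are not given in the sources used here. Library totals were 18568002 to 36234784 counts.

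From these counts, CPM with TMM scaling, RPKM from the table's gene lengths, and log2 fold changes were computed. The main test was edgeR 4.0.16 in R 4.3.3 (quasi-likelihood, filterByExpr, no block, two-sided, Benjamini-Hochberg adjustment over 21101 tested genes, called under 0.05), tested on simulated data first. DESeq2 1.42.0 and limma-voom (limma 3.58.1) were alternatives, with 3 other scalings, 2 other filters, the replicate block, each library left out, and, chosen after seeing the data, removal of each library's trend with GC content (GENCODE 29 transcripts). Deviations per library used log2 CPM with a pseudocount of 0.5. Same-numbered libraries deviated together (correlations 0.554, 0.381 and 0.358 against -0.39 to 0.06 for other pairs), so the numbers were taken as pairs, from the data and not from a label. Biological variation was 20.8% without and 11.9% with the block, which leaves 2 residual degrees of freedom.

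Named genes are those called, the 6 with the smallest p in each direction, the 2 highest and 2 lowest by RPKM per subunit, fixed symbols (MRPS18A to C, MRPS30, MRPS36, MRPL12, MRPS12) and the 3 with the smallest p of each other list. The proliferation genes are given only as a list, and some further genes are named outside this rule. Members and lists were chosen with earlier results of these data known, so no p is given for a list.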

Additional observations from a re-analysis of the deposited data

How the results depend on the processing

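The 5 genes lower in knockdown became 3 with RLE size factors, upper quartile factors or library totals. The count became 15 with the replicate block, 8 with the GC trend removed, and 19 with the GC trend removed and the block. Over all tested genes, 4.88% were lower in the main fit and 14.9% with the block. With the GC trend removed, 5.98% were lower without and 16.4% with the block. Called higher were 2.72%, 11.2%, 3.60% and 12.6% in the same order. In the main fit, 1 of the 38 genes without exon overlap was lower. Leaving out 1 library gave 0 to 4. The count of higher genes was 1 with no filter, with the block, and with the GC trend removed and the block, so calls in both directions were 3 under the other scalings, 16 with the block, 8 and 20 with the GC trend removed (without and with the block), 1 without overlap and 0 to 4 with 1 library left out. Upper quartile factors moved the median of all tested genes by 0.12 and that of the ribosomal protein genes to -0.07, and their summed CPM ratio to -0.088 (log2). The small-to-large ratio was 0.065 (log2) by place in the ribosome; scaling cannot change it, and filters, DESeq2 and limma-voom give no other sums. The small minus large median ran from -0.045 to 0.049 with 1 library left out. Calls in other lists moved as follows. Translation factors had 1 under upper quartile factors, 6 with the block and 0 to 2 with 1 library left out. Assembly genes had 1 with RLE, library totals or a mean of at least 5 CPM, 0 with upper quartile factors, 9 with the block and 0 to 1 with 1 library left out. Mitochondrial genome transcripts had 2 with no filter and 1 with the block. Regulators had 2 with no filter, 1 by DESeq2 and 2 with the block. Stress genes had 9 with no filter, 2 by DESeq2, 9 with the block and 0 to 1 with 1 library left out. Proliferation genes had 10 with no filter, 6 by DESeq2, 10 with the block and 0 to 5 with 1 library left out. Cytosolic ribosomal proteins had 1 with upper quartile factors, library totals or a mean of at least 5 CPM, 3 with no filter, 2 by DESeq2, 5 with the block and 0 to 1 with 1 library left out. Respiratory chain genes had 23 with the block and 3 to 12 with 1 library left out. The cause of these changes was not tested. Some named genes that passed no test changed sign. MRPS12 had 0.10 with upper quartile factors, 0.060 with library totals, 0.049 with a mean of at least 5 CPM, 0.023 by limma-voom, 0.0041 with the block, 0.056 with the GC trend removed and 0.058 with the block added. MRPS36 had 0.039 with upper quartile factors and 0.014 with library totals, MRPL24 0.018 with upper quartile factors, and MRPS34 -0.0093 with the GC trend removed and the block. With 1 library left out, log2 fold changes ran from -0.19 to 0.26 for MRPS12, -0.30 to 0.18 for MRPS36, -0.14 to 0.36 for MRPS34, -0.65 to 1.40 for MRPL12, -0.27 to 0.0012 for MRPL38, -0.033 to 0.23 for MRPL52, -0.31 to 0.070 for MRPS18C and -0.38 to 0.34 for MRPS24. Across 23 named genes, 299 values kept direction and side of the threshold, 29 kept direction and no longer passed, 12 newly passed and 25 changed sign. Depth limits the lowest genes: MRPS24 averaged 0.780 CPM in knockdown and 0.726 CPM in control libraries.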
